A study of Mus musculus with 30 samples.

Results

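The genes described here are 8 heat shock genes (Hspa1a, Hspa1b, Hspa8, Hsph1, Hspb1, Dnajb1, Hsp90aa1 and Hspe1) and 2 metallothionein genes (Mt1 and Mt2). They were taken by symbol from a table of 21841 genes, and all 10 were among the 13663 genes tested. Bulk RNA sequencing was run on 30 mammary tumours, in 6 groups of 5, from FVB/N-Tg(MMTV-PyVT)634Mul/J animals. In these mice the mouse mammary tumour virus promoter drives the polyoma middle T oncogene in the mammary epithelium, and the labels otherwise give the genotype as WT. The groups were vehicle, 5-fluorouracil (5-FU, 40 mg/kg every 4 days), gemcitabine (64 mg/kg every 7 days), the heme oxygenase inhibitor KCL-HO-1i (25 µmol/kg daily) and, at the same doses, the combinations KCL-HO-1i/gemcitabine and KCL-HO-1i/5-FU. Per the labels, drugs were injected into the peritoneum and tumours were collected after 72 h, so all 30 tumours share the oncogene and the collection schedule. KCL-HO-1i is a phosphate salt of tin mesoporphyrin, a heme analogue that blocks the heme-degrading enzyme HO-1, encoded by Hmox1. Each tumour also carries a label of its own, and the first part of that label is called the mouse code here. There are 13 such codes, and some occur in several treatment groups. Tumours with the same code differ in the rest of the label. What a code stands for is not given in the sources used here. The study's text describes each group as a cohort of mice and the collection of mice on different days, but the labels do not tie tumours to animals.

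Heat shock proteins are chaperones. When unfolded protein builds up, the transcription factor HSF1 is released from chaperones, binds heat shock elements in promoters and raises the transcription of many of these genes. HSP70 proteins (Hspa1a and Hspa1b when induced, Hspa8 at all times) hold and fold client proteins, HSP40 proteins such as Dnajb1 deliver clients to them, and HSP110 (Hsph1) exchanges their nucleotide. Hsp90aa1 encodes the inducible HSP90, Hspb1 a small heat shock protein and Hspe1 the lid of the mitochondrial chaperonin. Metallothioneins are small cysteine-rich proteins that bind zinc, copper and cadmium. Zinc acting on the factor MTF1 at metal response elements raises their transcription, as do glucocorticoids. In bulk tumours, fewer cells of a type and less RNA per cell cannot be told apart.

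The promoters of the 2 pairs of sister genes are shown because each pair varied together between tumours, and because the Hspa1a and Hspa1b sequences are nearly the same. The sequences are the 250 bases before the RefSeq start on GRCm38.p6, written 5′ to 3′. Capitals mark the heat shock element core GAANNTTC or TTCNNGAA in the heat shock genes, and the metal response element core TGCACNC or TGCGCNC, on either strand, in the metallothionein genes. Hspa1a lies at chr17:34972157-34972406, minus strand, Hspa1b at chr17:34959239-34959488, minus strand, Mt1 at chr8:94178839-94179088, plus strand and Mt2 at chr8:94172368-94172617, plus strand.
Hspa1a: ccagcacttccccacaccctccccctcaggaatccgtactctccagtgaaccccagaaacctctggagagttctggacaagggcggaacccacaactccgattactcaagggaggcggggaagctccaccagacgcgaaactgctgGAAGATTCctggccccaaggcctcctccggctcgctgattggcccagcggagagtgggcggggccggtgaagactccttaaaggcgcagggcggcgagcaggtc
Hspa1b: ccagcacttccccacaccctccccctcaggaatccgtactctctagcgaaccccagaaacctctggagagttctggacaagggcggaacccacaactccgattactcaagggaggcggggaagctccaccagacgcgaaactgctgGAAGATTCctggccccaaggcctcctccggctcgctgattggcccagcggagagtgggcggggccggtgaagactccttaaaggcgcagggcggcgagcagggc
Mt1: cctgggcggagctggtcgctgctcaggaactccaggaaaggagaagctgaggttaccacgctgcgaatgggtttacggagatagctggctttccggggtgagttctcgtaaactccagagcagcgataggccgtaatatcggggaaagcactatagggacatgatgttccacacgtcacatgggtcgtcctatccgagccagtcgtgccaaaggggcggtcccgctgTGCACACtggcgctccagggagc
Mt2: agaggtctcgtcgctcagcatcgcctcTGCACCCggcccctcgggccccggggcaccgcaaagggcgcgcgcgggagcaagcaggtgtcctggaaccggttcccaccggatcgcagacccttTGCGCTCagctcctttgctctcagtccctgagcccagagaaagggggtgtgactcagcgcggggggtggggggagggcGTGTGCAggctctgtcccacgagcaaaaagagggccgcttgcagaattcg

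The Hspa1a and Hspa1b windows differed at 3 of 250 bases, and both hold 1 heat shock element core, starting 104 bases before the start. The Mt1 window holds 1 metal response element core, 23 bases before the start, and the Mt2 window holds 3, at 223, 128 and 50 bases. Bases outside the windows were not searched, so these counts are not those of a whole promoter and do not rank the 2 genes. The Mt1 window is set by the RefSeq start and ends at 94179088, past the GENCODE start of the gene at 94179082. RefSeq windows were matched for 8 of the 10 genes, not for Hspa8 and Hsp90aa1, and Hsph1 and Dnajb1 have 2 windows each. Of 32851 promoter windows of this length, 12.84% hold a heat shock element core and 21.41% a metal response element core, so a single match is common. Hspe1 is shown as well because its 3 heat shock cores overlap in a run of alternating GAA and TTC units, and a run of at least 3 units is present in 0.4657% of windows. Hspb1 holds 2 cores at separate places, Hsph1 holds 1 in each of its windows, and neither Dnajb1 window holds one. The 60 bases printed for these genes lie at chr1:55088038-55088097, plus strand, at chr5:135887786-135887845, plus strand and at chr5:149636337-149636396, minus strand. A match describes letters in a window and not a bound site.
Hspe1: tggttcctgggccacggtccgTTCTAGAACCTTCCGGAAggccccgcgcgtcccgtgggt
Hspb1: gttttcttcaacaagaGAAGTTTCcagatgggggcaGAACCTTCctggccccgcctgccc
Hsph1: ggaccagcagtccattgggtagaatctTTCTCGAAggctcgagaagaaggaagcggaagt

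In the GENCODE M21 annotation of GRCm38, Hspa1a (chromosome 17, 34969190 to 34972156) and Hspa1b (chromosome 17, 34956436 to 34959238) are neighbouring genes of 1 exon each on the minus strand. Mt2 (chromosome 8, 94172664 to 94173568) and Mt1 (chromosome 8, 94179082 to 94180327) are neighbours on the plus strand, with 3 exons each. The others are spread over the genome: Hspa8 (chromosome 9, 40800984 to 40810087), Hsph1 (chromosome 5, 149614287 to 149636376), Hspb1 (chromosome 5, 135887919 to 135889563), Dnajb1 (chromosome 8, 83608193 to 83612653), Hsp90aa1 (chromosome 12, 110690605 to 110702728) and Hspe1 (chromosome 1, 55088132 to 55091307). Of the stretches of 31 bases in the Hspa1a transcript, 63.8% also occur in that of Hspa1b, and 67.5% in the other direction. Reads of these 2 genes were therefore divided between them by estimation, and the values of either one alone are uncertain. Hspa1a took between 23.6% and 31.96% of the reads of the pair in the 30 tumours. No stretch of 31 bases was shared by Mt1 and Mt2.

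Total counts ran from 10067698 to 13622395 per tumour, and the 10 genes together took between 0.213% and 0.634% of them, with a median of 0.309%. Values below are CPM, reads scaled to a common library size after TMM normalisation, unless another scale is named. The luminal epithelial markers were expressed in every tumour, with a summed level between 2643 and 6065 CPM. Skeletal muscle and fat markers stood apart in some tumours. The 10 muscle markers summed to at most 251 CPM in the other 4 groups, but reached 4460 CPM in the KCL-HO-1i group and 13447 CPM in KCL-HO-1i/gemcitabine. The 10 adipocyte markers reached 8541 and 8307 CPM in the same groups. Over 1000 CPM of either list was present in 7 tumours (1 gemcitabine, 3 KCL-HO-1i and 3 KCL-HO-1i/gemcitabine), and some results are also given without them. Hmox1, the gene of the drug target, was the check of the treatment, with a log2 fold change of 2.42 (SE 0.38, unadjusted p = 8.65e-07, edgeR adjusted p = 0.0113) for KCL-HO-1i averaged over its 3 backgrounds (none, 5-FU and gemcitabine).

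On a scale that allows levels to be compared between genes, CPM per kilobase of transcript, Hspa8 was the most abundant (428 to 1443 over the 30 tumours). Hspe1 (133 to 506), Hsp90aa1 (128 to 494), Mt1 (87.7 to 638), Hspb1 (78.6 to 188) and Mt2 (19.0 to 545) followed by their medians. The genes of lowest median level were Hspa1b (6.1 to 93.6), Hsph1 (7.95 to 42.2), Dnajb1 (15.6 to 34.0) and Hspa1a (2.69 to 35.7). The constitutive HSP70 gene was therefore above the inducible pair in every tumour on this scale.

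By the biological coefficient of variation, the spread between tumours was widest for the metallothioneins. Mt2 ran from 9.70 to 279 CPM, a ratio of 28.7 between the highest and the lowest tumour. That ratio was 15.3 for Hspa1b, 13.3 for Hspa1a and 7.27 for Mt1. The biological coefficient of variation of Mt2 was 0.679. Only 12.0% of the genes tested had a higher one. Mt1 (0.448), Hspa1b (0.385) and Hspa1a (0.373) came next, and Dnajb1 was the steadiest at 0.189. The median over all genes tested was 0.237. Over the 6196 genes with a mean log2 CPM within the range of the members it was 0.178, below the value of every member. Differences between the 6 groups made up 38.6% of the variance of log2 CPM in Hspa1a and 13.4% in Mt2, against a median of 20.5% over all genes tested. Most of the variation of every member therefore lay between tumours of the same group.

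**Figure D1:**
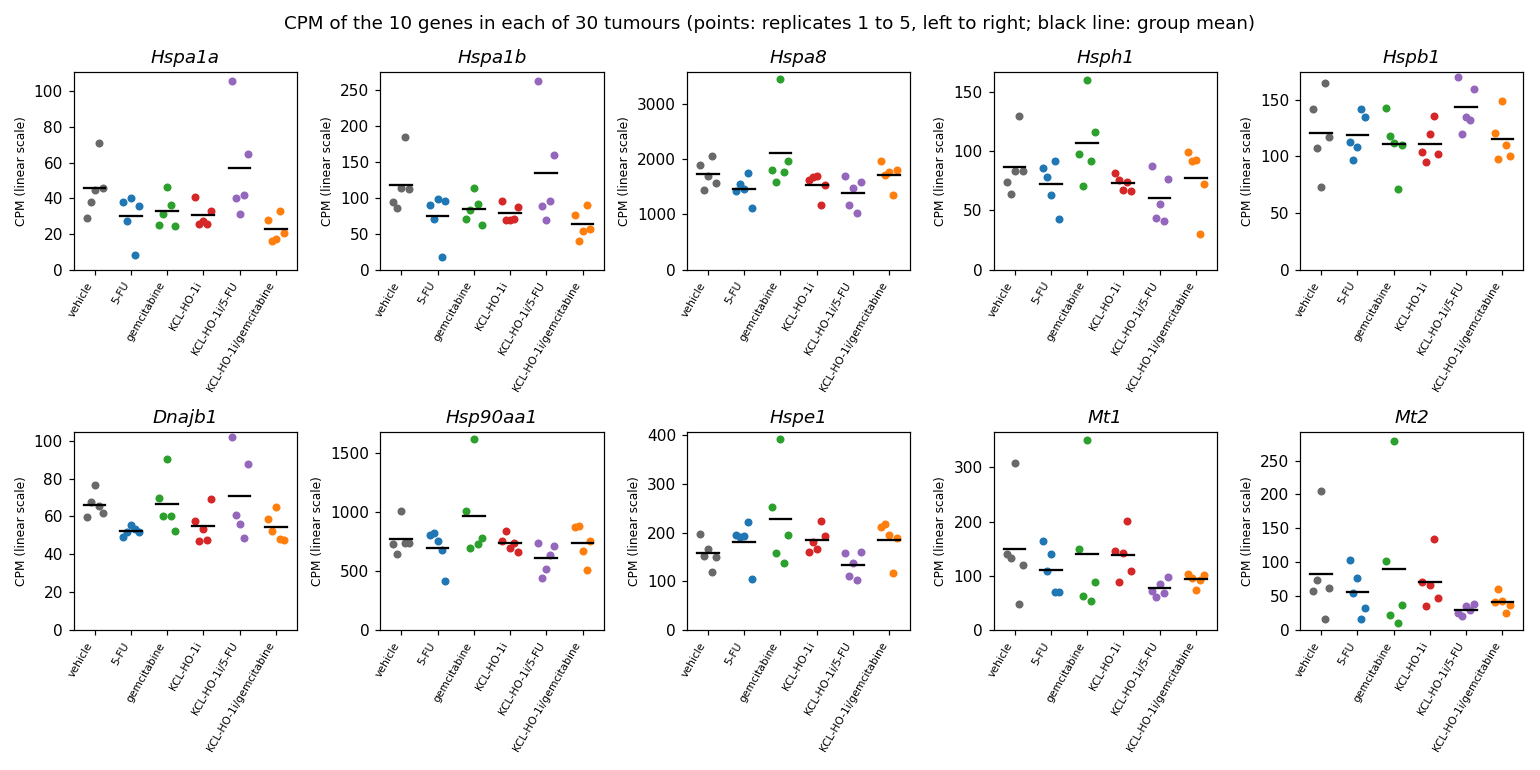
CPM of each gene (vertical axis, linear scale from 0) in the 30 tumours by treatment group. Points are tumours and the black line is the group mean; single tumours such as gemcitabine replicate 3 for Hspa8 (3454 CPM) and KCL-HO-1i/5-FU replicate 1 for Hspa1b (262 CPM) lie far above the others of their group.

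None of the 10 genes passed an adjusted p of 0.05 in any of 13 comparisons by edgeR. These were all 5 treatments set against vehicle, the average of KCL-HO-1i over its backgrounds, each combination against either of its parts, the interaction of KCL-HO-1i with either drug, and any difference among the 6 groups. The background was itself low, with 0% of the 13663 genes called in 11 of these comparisons, 0.0586% (8 genes) in the KCL-HO-1i average and 0.651% (89 genes) among the 6 groups. Members below an unadjusted p of 0.05 are therefore named with their values as descriptions. DESeq2 called 1 member, Hspa1a, among the 6 groups (adjusted p = 0.0358), and limma-voom called 1, again Hspa1a, in KCL-HO-1i/gemcitabine against vehicle (adjusted p = 0.0378). These tools called more of all genes, 6.98% with DESeq2 among the 6 groups and 9.59% with limma-voom in that comparison, so 1 of 10 members is near the share over all genes. All other comparisons gave 0 members with both tools. Of the 50 steps between neighbouring group means, when the 6 groups were ordered for each gene, 48 were smaller than the larger SD of the 2 groups. Ordering makes each step only a part of the whole range, so this count cannot show that the groups are alike. For Hspa1a every step was smaller, while the group means ran from 23.0 to 56.8 CPM.

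The inducible HSP70 pair had its lowest group mean in KCL-HO-1i/gemcitabine and its highest in KCL-HO-1i/5-FU. For Hspa1a the 5 vehicle tumours read 28.8, 37.9, 44.8, 70.9 and 46.0 CPM, and the KCL-HO-1i/gemcitabine tumours read 28.0, 16.3, 17.3, 32.9 and 20.5 CPM. The KCL-HO-1i/5-FU tumours read 106, 40.0, 31.2, 42.1 and 64.8 CPM. The vehicle and KCL-HO-1i/gemcitabine tumours overlapped through 1 vehicle and 1 treated tumour, and the KCL-HO-1i/5-FU mean was carried by replicates 1 and 5, which share a mouse code. The other 3 groups lay between, at 29.9 ± 13.2 CPM for 5-FU, 32.6 ± 9.04 for gemcitabine and 30.4 ± 6.37 for KCL-HO-1i (SD, n = 5 each). Within the 5-FU group, replicate 4 stood at 7.98 CPM, the lowest of all 30 tumours, and the other 4 were at 27.3 CPM or above.

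Hspa1b had its lowest and highest group means in the same groups. Vehicle tumours read 93.4, 86.3, 113, 184 and 112 CPM, KCL-HO-1i/gemcitabine tumours 75.6, 39.1, 53.5, 89.3 and 56.6 CPM and KCL-HO-1i/5-FU tumours 262, 88.2, 68.4, 94.6 and 159.6 CPM. In the 5-FU group the values were 90.3, 70.0, 98.6, 17.1 and 95.2 CPM, with the same tumour lowest. Since the reads of both genes are shared, the pair counts as 1 line of evidence.

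In KCL-HO-1i/gemcitabine against vehicle the log2 fold change was -0.99 (SE 0.34, unadjusted p = 0.00772, edgeR adjusted p = 0.116) for Hspa1a and -0.91 (SE 0.35, unadjusted p = 0.0168, edgeR adjusted p = 0.15) for Hspa1b. The 2 members, both lower, stand against 19.8% of all genes below the same unadjusted p in this comparison (8.04% lower). Their share is near that of all genes in either direction, and the pair counts as 1 line of evidence. Without the 7 tumours rich in muscle or fat markers, which leaves 2 of the KCL-HO-1i/gemcitabine tumours, the log2 fold changes were -0.88 (unadjusted p = 0.102, edgeR adjusted p = 0.6) and -0.74 (unadjusted p = 0.176, edgeR adjusted p = 0.652). For the other 8 members the log2 fold changes ran from -1.01 (Mt2) to 0.24 (Hspe1).

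In KCL-HO-1i/5-FU against 5-FU, Hspa1a had a log2 fold change of 0.93 (SE 0.34, unadjusted p = 0.0116, edgeR adjusted p = 0.344) and Hspa1b of 0.86 (SE 0.35, unadjusted p = 0.0225, edgeR adjusted p = 0.367). Dnajb1, which activates HSP70 and was the third member below the unadjusted threshold, had 0.44 (SE 0.16, unadjusted p = 0.0127, edgeR adjusted p = 0.344). Over all genes 11.4% were below it (6.18% higher). Without KCL-HO-1i/5-FU replicate 1 the 3 values were 0.58, 0.47 and 0.27. The same 3 genes were below it when the same tumours were set against KCL-HO-1i alone (0.90, 0.78 and 0.37, with 16.9% of all genes and 7.47% higher). Without replicate 1 of the combination these were 0.55, 0.39 and 0.21. Without the 7 tumours rich in muscle or fat markers, which leaves 2 tumours of KCL-HO-1i alone, they were 0.61, 0.54 and 0.15. The unadjusted p-values of edgeR were then 0.239, 0.312 and 0.506. Against 5-FU the values without those 7 tumours were 0.91, 0.84 and 0.42 (unadjusted p = 0.0239, 0.0405 and 0.0199). Both comparisons share the KCL-HO-1i/5-FU tumours.

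The interaction asks whether the combination departs from the sum of its parts. With 5-FU it was 1.51 (SE 0.48, unadjusted p = 0.00412, edgeR adjusted p = 0.45) for Hspa1a, 1.44 (SE 0.50, unadjusted p = 0.00768, edgeR adjusted p = 0.459) for Hspa1b and 0.71 (SE 0.23, unadjusted p = 0.00511, edgeR adjusted p = 0.45) for Dnajb1, against 8.53% of all genes below an unadjusted p of 0.05 (4.03% higher). The 3 values were 1.16, 1.05 and 0.54 without KCL-HO-1i/5-FU replicate 1. With gemcitabine no member was below the threshold, beside 1.34% of all genes, and the log2 values ran from -0.91 for Mt2 to 0.18 for Hspb1. No member passed the adjusted test in either interaction.

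Dnajb1 itself varied little. The vehicle tumours read 59.5, 67.5, 76.51, 65.3 and 61.7 CPM and the 5-FU tumours 49.0, 52.0, 55.6, 53.6 and 51.8 CPM. All 5 values of the 5-FU group were below all 5 of vehicle, with a log2 fold change of -0.34 (SE 0.16, unadjusted p = 0.0512, edgeR adjusted p = 0.999). It was the only member without overlap in this comparison, where 0.366% of all genes lay wholly lower and 0.681% in either direction. Combination with KCL-HO-1i gave 102, 60.7, 56.2, 48.6 and 87.7 CPM, of which 3 were above the lowest vehicle tumour and 2, replicates 1 and 5, were above every vehicle tumour.

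Hspa8 and Hsph1, whose products work together as chaperone and nucleotide exchanger, did not separate the groups. Group means of Hspa8 ran from 1389.6 ± 283 CPM in KCL-HO-1i/5-FU to 2114 ± 762 CPM in gemcitabine (SD, n = 5 each). In the gemcitabine group the values were 1799, 1578, 3454, 1772 and 1968 CPM, so that replicate 3 was far above the rest. Its unadjusted p for any difference among the 6 groups was 0.028 (edgeR adjusted p = 0.22), beside 18.7% of all genes below 0.05, and the adjusted p was 0.397 without that tumour. Hspa1a, Hspa1b and Dnajb1 were the other 3 members below it in that test.

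Hsph1 had a log2 fold change of -0.33 (SE 0.16, unadjusted p = 0.0474, edgeR adjusted p = 0.212) in the KCL-HO-1i average. It was the 1 member below an unadjusted p of 0.05 there, beside 23% of all genes (9.22% lower). The 15 tumours without KCL-HO-1i lay between 42.8 and 160 CPM and the 15 with it between 30.2 and 99.5 CPM, and the ranges overlapped widely. Leaving out 1 tumour at a time gave values from -0.38 to -0.26.

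The remaining log2 fold changes in the KCL-HO-1i average were near 0 for Hspa1a, -0.05 (SE 0.20), Hspa1b, -0.05 (SE 0.20), Dnajb1, -0.04 (SE 0.09), and Hspb1, 0.07 (SE 0.10). Hspa8 had -0.18 (SE 0.10), Hsp90aa1 -0.22 (SE 0.12) and Hspe1 -0.16 (SE 0.13). Leaving out gemcitabine replicate 3 alone moved these 3 values to -0.10, -0.13 and -0.07, each by over 1.5 times. The 95% interval was -0.46 to 0.35 for Hspa1a and -0.15 to 0.28 for Hspb1, so a moderate difference in either direction could not be detected for the former at this spread. The signs of Hspa1a, Hspa1b and Dnajb1 turned positive when the 7 tumours rich in muscle or fat markers were left out (0.04, 0.05 and 0.01). When the mouse code was added to the fit, 6 members had the opposite sign in this average (Hspa1a 0.33, Hspa1b 0.24, Hspb1 -0.27, Hsp90aa1 0.0788, Mt1 0.22 and Mt2 0.38), so the direction of these values is not settled. The median log2 fold change of the 8 heat shock genes was -0.11, against 0.00 (-0.00069) over all genes tested.

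**Figure D2:**
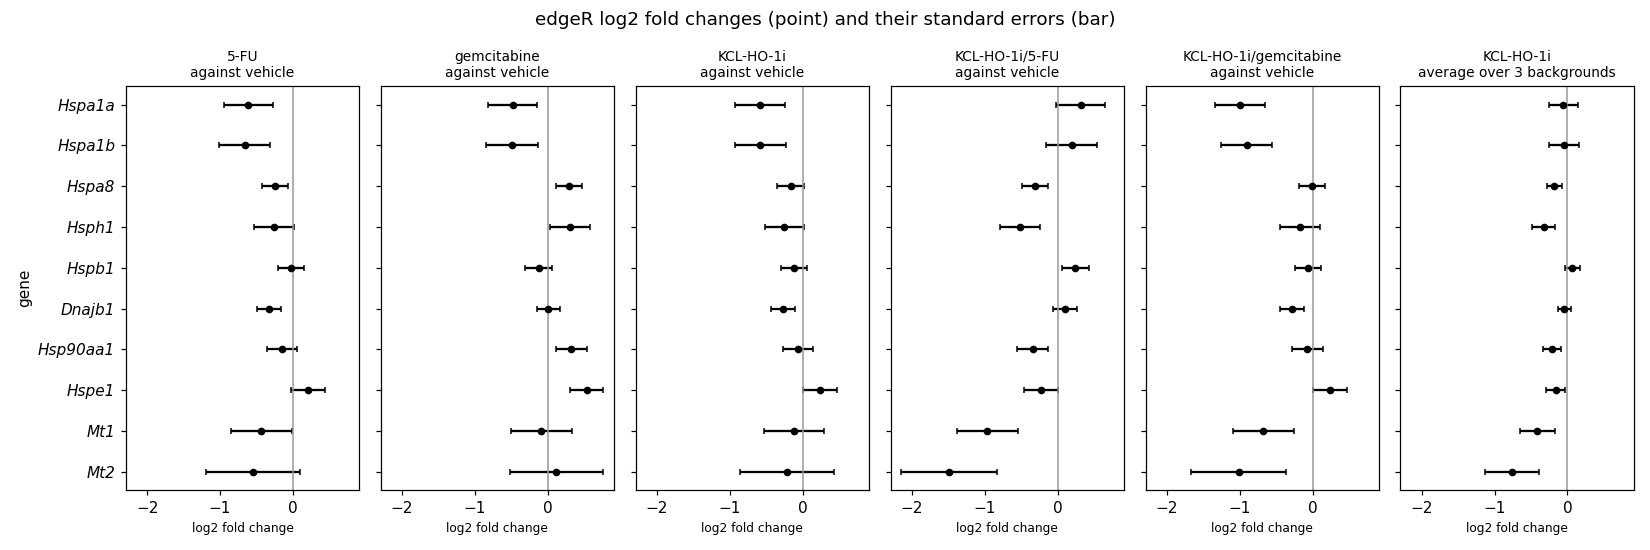
edgeR log2 fold changes (horizontal axis) of the 10 genes in 6 comparisons, with points for the estimate and bars for 1 standard error. The lowest estimate is that of Mt2 in KCL-HO-1i/5-FU against vehicle (-1.49), and the estimates of the inducible HSP70 genes lie lower in KCL-HO-1i/gemcitabine than in KCL-HO-1i/5-FU.

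Hspb1, the small heat shock protein gene, ran from 71.0 to 170 CPM. Its highest group mean was 143 ± 20.7 CPM in KCL-HO-1i/5-FU and the other 5 means lay between 111 and 121 CPM, so it exceeded 4 of them by more than the SD of either group, and the vehicle mean by less than the vehicle SD. It was below an unadjusted p of 0.05 in no comparison.

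Hsp90aa1 and Hspe1 were highest in replicate 3 of the gemcitabine group. Hsp90aa1 read 1012, 696, 1621, 732 and 777 CPM in the gemcitabine tumours and 730.0, 649, 1013, 739 and 736 CPM in vehicle. Hspe1 read 253, 157, 392, 137 and 195 CPM and 197, 152, 165, 119.9 and 151 CPM in the same groups. The groups overlapped for both genes. Hspe1 was the 1 member below an unadjusted p of 0.05 in gemcitabine against vehicle, at 0.53 (SE 0.23, unadjusted p = 0.0296, edgeR adjusted p = 0.941), beside 3.83% of all genes (2.05% higher). It was 0.24 without replicate 3 of the gemcitabine group. Against KCL-HO-1i, the KCL-HO-1i/5-FU tumours (158, 110.5, 137, 103 and 160.4 CPM) all lay below the 5 KCL-HO-1i tumours (161, 181, 167, 223 and 192 CPM), as did 2.55% of all genes (4.41% in either direction), with a log2 fold change of -0.47 (SE 0.23, unadjusted p = 0.0538, edgeR adjusted p = 0.307). Apart from this result and Dnajb1 in 5-FU against vehicle, no member lay wholly apart in the 9 comparisons of 2 groups. The share of all genes that did so in either direction against vehicle was 4.05% for the gemcitabine combination, 3.6% for the 5-FU combination, 1.16% for KCL-HO-1i alone and 0.359% for gemcitabine alone. It was 1.57% when 5-FU alone was the reference for its combination, 1.65% for gemcitabine alone and 0.512% for KCL-HO-1i alone against the gemcitabine combination.

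The metallothioneins had their lowest group means in KCL-HO-1i/5-FU. Mt2 read 56.7, 73.5, 205, 16.0 and 61.7 CPM in vehicle, 103, 55.0, 76.96, 15.4 and 32.8 CPM in 5-FU and 101, 21.6, 279, 9.7 and 36.8 CPM in gemcitabine. It read 71.4, 35.6, 66.5, 134 and 47.6 CPM in KCL-HO-1i, 25.0, 19.8, 35.0, 28.8 and 38.6 CPM in KCL-HO-1i/5-FU and 41.4, 59.8, 42.2, 24.6 and 36.8 CPM in KCL-HO-1i/gemcitabine. Vehicle, 5-FU and gemcitabine each held tumours above and tumours below every tumour of both combination groups, and KCL-HO-1i held tumours above them and within their range. The combination groups were the most even, with SDs of 7.54 and 12.7 CPM against 34.7 to 111 CPM. The difference in spread was not tested. Gemcitabine replicates 1 to 4 share a mouse code but not the rest of the label. They held both the highest and the lowest Mt2 value of the 30 tumours.

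Mt1 had its highest group mean in vehicle, where for Mt2 it was in gemcitabine. Mt1 read 139.6, 133, 308, 48.2 and 119 CPM in vehicle and 72.1, 60.9, 84.1, 68.4 and 96.9 CPM in KCL-HO-1i/5-FU, where the groups overlapped through vehicle replicate 4. In KCL-HO-1i/5-FU against vehicle the log2 fold change was -0.97 (SE 0.42, unadjusted p = 0.0284, edgeR adjusted p = 0.228) for Mt1 and -1.49 (SE 0.66, unadjusted p = 0.0322, edgeR adjusted p = 0.238) for Mt2. These 2 members stand beside 17.6% of all genes below the unadjusted threshold (7.84% lower), and without vehicle replicate 3 the values were -0.53 and -0.83. In the KCL-HO-1i average the log2 fold change was -0.76 (SE 0.37, unadjusted p = 0.0511, edgeR adjusted p = 0.22) for Mt2 and -0.41 (SE 0.24) for Mt1, and without gemcitabine replicate 3 it was -0.41 and -0.19. The plain difference of mean log2 CPM in this average was smaller, at -0.29 for Mt2 and -0.21 for Mt1. In 5-FU and in KCL-HO-1i against vehicle, no member was below an unadjusted p of 0.05, beside 3.89% and 9.43% of all genes, and the same held for KCL-HO-1i/gemcitabine set against either of its parts (13.5% of all genes for gemcitabine, 2.66% for KCL-HO-1i).

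**Figure D3:**
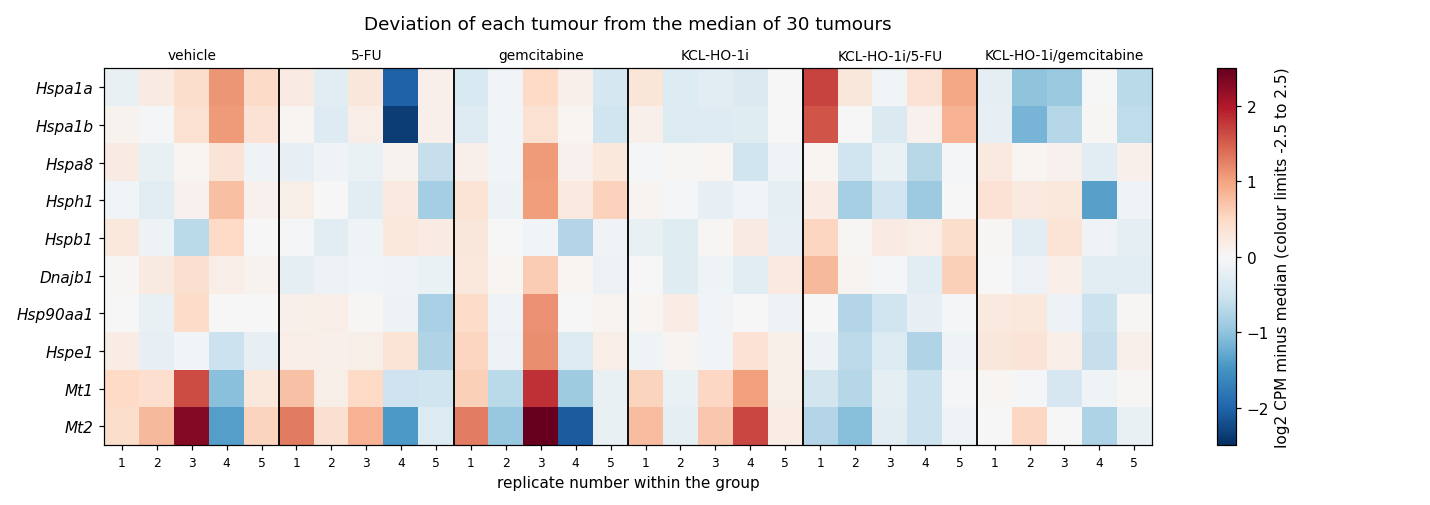
Log2 CPM of the 10 genes (rows) in the 30 tumours (columns, by group and replicate) minus the median of all tumours, on a colour scale from -2.5 to 2.5. Gemcitabine replicate 3 is high for Hspa8, Hsph1, Hsp90aa1, Hspe1, Mt1 and Mt2 together, while KCL-HO-1i/5-FU replicate 1 is high for Hspa1a, Hspa1b, Hspb1 and Dnajb1.

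Across the 30 tumours the 10 genes did not move as 1 programme. Of 45 pairs, 12 had a Spearman rho above 0.5 and 12 a rho under 0. In 15 pairs rho had a Benjamini-Hochberg adjusted permutation p under 0.05, of which 1 was negative. When the group means were first subtracted, 12 pairs again passed 0.5, of which 11 were the same pairs, and 6 pairs had a rho under 0. Gemcitabine replicate 3 had the highest value of the 30 for Hspa8, Hsph1, Hsp90aa1, Hspe1, Mt1 and Mt2, and KCL-HO-1i/5-FU replicate 1 for the other 4 genes. Values of r are therefore given as well without 2 tumours. These are the 2 farthest from the median of whichever member of the pair is listed first in the opening. For the list scores below they are the 2 farthest from the median of the score. Neither rule need remove the tumours named here.

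The pair Hspa1a and Hspa1b had a rho of 0.95 (Pearson r = 0.98, adjusted permutation p = 0.00015 and 9e-05, r = 0.97 without the 2 farthest tumours). Their reads were divided by estimation, and the part of this in the value was not tested. Dnajb1 followed Hspa1a with a rho of 0.51 (r = 0.57, adjusted permutation p = 0.015 and 0.0033, r = 0.48 without the 2 farthest). These 3 genes are those named for the interaction with 5-FU, and within groups the r of Hspa1a and Dnajb1 was 0.42.

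A second block held Hspa8, Hsph1, Hsp90aa1 and Hspe1. Hspa8 and Hsph1 had a rho of 0.80 (r = 0.82, adjusted permutation p = 0.00015 and 9e-05, r = 0.76 without the 2 farthest). Hsph1 and Hsp90aa1 had 0.69 (r = 0.78, adjusted permutation p = 0.00068 and 9e-05, r = 0.71 without the 2 farthest), and Hsp90aa1 and Hspe1 had 0.62 (r = 0.81, adjusted permutation p = 0.0029 and 9e-05, r = 0.65 without the 2 farthest). The inducible HSP70 genes stood outside it. Hspa1a had a rho of -0.21 with Hspa8, and of -0.51 with Hspe1 (r = -0.35, adjusted permutation p = 0.015 and 0.14, r = -0.35 without the 2 farthest), a rho that was -0.15 within groups.

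Mt1 and Mt2 had a rho of 0.95 (r = 0.96, adjusted permutation p = 0.00015 and 9e-05, r = 0.93 without the 2 farthest). They joined the second block through Hspe1 and Hsp90aa1. Mt1 and Hspe1 had a rho of 0.56 (r = 0.62, adjusted permutation p = 0.0082 and 0.0016, r = 0.46 without the 2 farthest), and Hsp90aa1 and Mt2 had 0.53 (r = 0.61, adjusted permutation p = 0.013 and 0.0019, r = 0.50 without the 2 farthest). Mt1 had a rho of 0.02 with Hspa1a and 0.03 with Hspa8. Hspb1 had no rho above 0.27 with any other member.

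**Figure D4:**
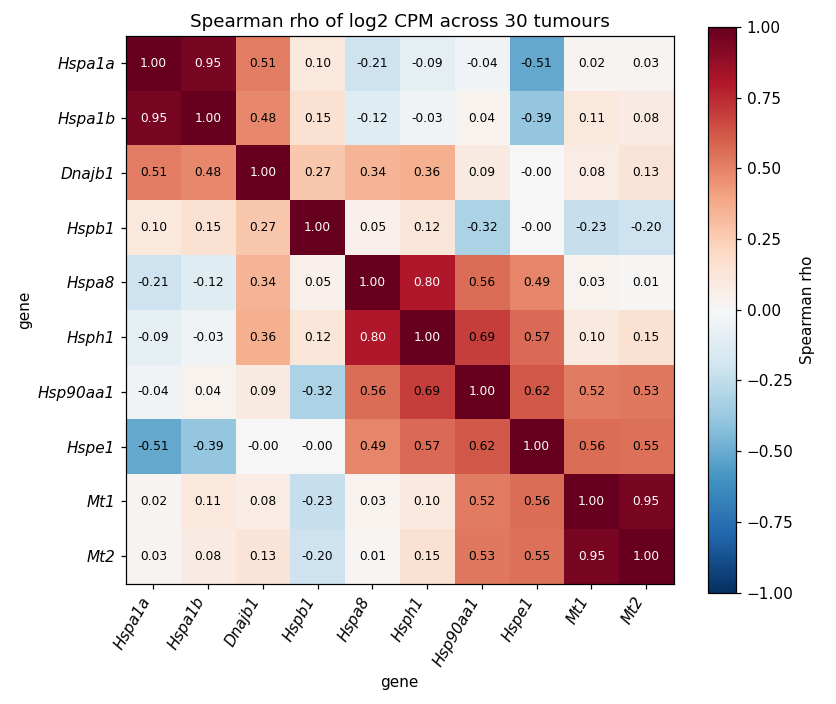
Spearman rho of log2 CPM across the 30 tumours for every pair of the 10 genes, on a colour scale from -1 to 1. Hspa1a, Hspa1b and Dnajb1 form one block, Hspa8, Hsph1, Hsp90aa1 and Hspe1 another that reaches Mt1 and Mt2, and Hspb1 follows none of them.

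Genes outside the set were ranked by their Spearman rho over the 30 tumours, as a description of likeness. With the mean log2 CPM of the 8 heat shock genes the highest were Chka (0.81, a choline kinase), Ubfd1 (0.79), Serinc2 (0.76), Rad23b (0.76, a carrier of ubiquitinated proteins and DNA repair factor) and Actg1 (0.76, cytoplasmic gamma actin). With the mean of Mt1 and Mt2 the highest included Slc30a2 (0.85), a zinc transporter, Aldh9a1 (0.80, an aldehyde dehydrogenase), Plaa (0.79) and Slc20a1 (0.79, a phosphate transporter).

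The other genes of these pathways were read from lists. Of 20 other HSF1 targets and co-chaperones, all tested, 0 passed the adjusted test in any of the 13 comparisons. In the KCL-HO-1i average 2 were higher and 3 lower below an unadjusted p of 0.05, with a median log2 fold change of -0.10. Fkbp4, an HSP90 co-chaperone, had -0.28 (SE 0.09, edgeR adjusted p = 0.0736) and Hsp90ab1, the constitutive HSP90, -0.18 (SE 0.07, edgeR adjusted p = 0.104). The mean of this list had a rho of 0.69 with Hsph1 (r = 0.77, adjusted permutation p = 0.0026 and 0.00043, r = 0.73 without the 2 farthest tumours) and of -0.09 with Hspa1a. A list of 3 heat shock factors and Hsbp1, whose product binds HSF1 and restrains it, had 0 of 4 genes below either threshold in the KCL-HO-1i average, with Hsf4 at 0.68 (SE 0.53) and Hsbp1 at 0.08 (SE 0.07).

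Of the 8 subunits of the cytosolic chaperonin, which folds actin and tubulin, 6 were lower below an unadjusted p of 0.05 in the KCL-HO-1i average, and 0 passed the adjusted test. Tcp1 had -0.22 (SE 0.08) and Cct6a -0.40 (SE 0.14), both at an edgeR adjusted p of 0.0963. The list median was -0.18. In the same comparison markers of some other cell types were higher below the unadjusted threshold. These were 8 of 8 for fibroblasts (median log2 fold change 1.57), 7 of 8 for macrophages (0.80) and 4 of 8 for endothelium (0.67). All 10 each were higher for muscle (3.35) and fat (2.27), while 1 of 8 luminal markers was lower. Of the T cell markers 0 of 7 were below it in either direction (median -0.07), and of the skin keratinocyte markers 0 of 6 (-0.12). The summed fibroblast markers ran from 107 to 3235 CPM in the 15 tumours without KCL-HO-1i and from 176 to 12086 CPM in the 15 with it. The part of these markers in the values of the lists and of the 10 genes in this average was not tested. Among 12 chaperones of the endoplasmic reticulum 1, Hyou1, was lower below the unadjusted threshold (-0.27, SE 0.11, edgeR adjusted p = 0.137) and Canx had -0.10 (SE 0.07). Of 7 mitochondrial chaperones and proteases 0 were below it, with Clpp at -0.12 (SE 0.08) and Lonp1 at -0.13 (SE 0.09). The score of the mitochondrial list had a rho of 0.78 with Hspe1 (r = 0.66, adjusted permutation p = 0.0017 and 0.0042, r = 0.64 without the 2 farthest tumours).

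Of 10 genes for other metallothioneins and zinc handling 8 were tested, since Mt3 and Mt4 had at most 5 and 9 reads in a tumour. None passed the adjusted test. In the KCL-HO-1i average 2 were higher and 1 lower below an unadjusted p of 0.05, among them the zinc importers Slc39a14 at 0.50 (SE 0.17, edgeR adjusted p = 0.092) and Slc39a10 at -0.27 (SE 0.11, edgeR adjusted p = 0.145). Of 10 glucocorticoid-induced genes 4 were lower below that threshold, with Errfi1 at -0.37 (SE 0.13) and Fkbp5 at -0.33 (SE 0.14), and 0 passed the adjusted test. Of 14 immediate early genes 1 was lower, Nr4a1 at -0.48 (SE 0.14, edgeR adjusted p = 0.0618), and Ier3 had -0.36 (SE 0.21). Each count may be set against the 13.7% of all genes higher and 9.22% lower in this comparison.

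The members were also set against the scores of the lists. In a family of 170 pairs of a member and a score (16 lists and the mitochondrial share of counts), 23 had an adjusted permutation p under 0.05 for rho, 18 positive and 5 negative. Hspa1b had a rho of 0.67 with the glucocorticoid-induced list (r = 0.62, adjusted permutation p = 0.0026 and 0.0068, r = 0.71 without the 2 farthest tumours) and of 0.55 with the luminal epithelial markers (r = 0.61, adjusted permutation p = 0.024 and 0.0072, r = 0.63 without the 2 farthest). Hspe1 had a rho of -0.50 with the glucocorticoid-induced list (r = -0.44, adjusted permutation p = 0.04 and 0.085). With that list Mt1 had a rho of -0.08 and Mt2 of -0.04 (adjusted permutation p = 0.82 and 0.90). With the list of other metallothioneins and zinc handling they had 0.23 and 0.33 (adjusted permutation p = 0.45 and 0.21). Dnajb1 had a rho of -0.65 with the 8 fibroblast markers (r = -0.57, adjusted permutation p = 0.0028 and 0.011, r = -0.54 without the 2 farthest) and of -0.65 with the 8 macrophage markers (r = -0.59, adjusted permutation p = 0.0026 and 0.0075, r = -0.47 without the 2 farthest). Its r within groups was -0.56 and -0.62. Dnajb1 was also negative with the adipocyte markers (rho = -0.62, r = -0.54, adjusted permutation p = 0.0042 and 0.015). With the endothelial markers its rho was -0.61 (r = -0.50, adjusted permutation p = 0.0068 and 0.034). Hspa1b had rho values of the same sign, -0.48 with the fibroblast markers (r = -0.35, adjusted permutation p = 0.052 and 0.24) and -0.46 with the macrophage markers (r = -0.17, adjusted permutation p = 0.066 and 0.59). The summed fibroblast markers ranged from 107 to 902 CPM in vehicle and from 500.4 to 1193 CPM in 5-FU, where Dnajb1 lay wholly lower, and their part in that difference was not tested. Mt1 and Mt2 had no adjusted p under 0.05 with the muscle, adipocyte, fibroblast or macrophage markers, with rho between -0.14 and 0.13. Mt1 had a rho of 0.53 with the luminal epithelial markers (r = 0.38, adjusted permutation p = 0.028 and 0.17, r = 0.43 without the 2 farthest) and of 0.37 with the skin keratinocyte markers (r = 0.60, adjusted permutation p = 0.16 and 0.0075, r = 0.40 without the 2 farthest). For Mt2 and the keratinocyte markers rho was 0.34 (r = 0.54, adjusted permutation p = 0.2 and 0.017, r = 0.31 without the 2 farthest).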

How the data were processed

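Bulk RNA-seq of 30 tumours was analysed from 1 table of 21841 genes. The authors checked reads with FastQC 0.11.9, aligned them with STAR 2.7.9a (mm10), quantified them with Salmon 1.9.0 and summed transcripts to genes, and the table they deposited holds estimated counts per gene, unscaled. The annotation release is not given in the sources used here. Many values are not whole, and they were rounded. Groups came from the labels, which give 72 h and 64 mg/kg gemcitabine, where the paper's text differs. The main test was the edgeR 4.0.16 quasi-likelihood test (R 4.3.3, TMM, filterByExpr with a minimum count of 10, 6 group means, all 30 libraries), with Benjamini-Hochberg adjustment over 13663 genes and two-sided p-values. It was tested on simulated data. Total counts ran from 10067698 to 13622395, and 3 reads equalled 0.215 to 0.302 CPM, which covers counting error only. Alternatives were DESeq2 1.42.0, limma-voom 3.58.1 with quality weights, RLE scaling, other filters, a replicate block, the mouse code, fits of only the groups compared, a summed Hspa1a and Hspa1b row, and leaving out each library. Correlations used log2 CPM (prior count 2) and two-sided tests with 100000 permutations, of which 1e-05 is the smallest p possible, adjusted over 45 pairs of members and, separately, over 170 pairs of a member and a list score. List scores are the mean log2 CPM of the tested genes of a list.

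The members and lists were chosen with earlier results of these data known. Named were the 10 members with all log2 fold changes in the KCL-HO-1i average, elsewhere those with an unadjusted p under 0.05 and the range of the rest, Hmox1, in each list any gene past the adjusted threshold and the 2 genes with the smallest p in that average, and the 5 most alike genes for either profile, of which 1 is not reported here. Other member values shown beside these, and the tests against list scores, were chosen after the values were seen. Transcript lengths and coordinates are from GENCODE M21 (GRCm38, the longest principal protein-coding transcript), and promoters from RefSeq (GRCm38.p6). Of 60 library pairs within groups none was a duplicate (lowest chi-square per degree of freedom 19.6).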

Additional observations from a re-analysis of the deposited data

Results flagged for a closer look

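Each gene and group of 5 tumours, 60 sets in all, was checked for a tumour far from the other 4 with Dixon's ratio (critical value 0.71), which chance passes in about 5% of sets. It was passed in 5 sets. Hspa1b read 184 CPM in vehicle replicate 4, where the others lay between 86.3 and 113 CPM. Hspa8 read 3454 CPM in gemcitabine replicate 3, against 1578 to 1968 CPM. Hsp90aa1 read 1013 CPM in vehicle replicate 3, against 649 to 739 CPM. Hspe1 read 104 CPM in 5-FU replicate 5, against 191 to 221 CPM, and 117 CPM in KCL-HO-1i/gemcitabine replicate 4, against 189.6 to 217 CPM.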

How the results depend on the processing

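The count of members called was 0 in all 13 comparisons under RLE scaling, both filters, the mouse code, the summed Hspa1a and Hspa1b row and each left-out library, and, as an alternative chosen after seeing the data, without the 7 libraries rich in muscle or fat markers. Fits of only the groups compared, which leave out the KCL-HO-1i average and the test among the 6 groups, also gave 0. It was 1 with DESeq2 among the 6 groups (Hspa1a, adjusted p = 0.0358) and 1 with limma-voom in KCL-HO-1i/gemcitabine against vehicle (Hspa1a, -0.91, adjusted p = 0.0378), and the cause was not tested. The replicate block gave 0 members called in every comparison and changed no call. Whether same-numbered libraries are pairs is not known. Their residuals had a mean correlation of 0.00284 over 75 pairs (range -0.58 to 0.48), against 0.00196 for libraries of another number. A mean near 0 with this range does not settle the question. Pairs of members with a rho above 0.5 numbered 9 to 13 when 1 library was left out, and 12 in the main analysis.

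With the mouse code as a covariate, Hspe1 in gemcitabine against vehicle was -0.27, and in the KCL-HO-1i average Hspa1a was 0.33, Hspa1b 0.24, Hspb1 -0.27, Hsp90aa1 0.0788, Mt1 0.22 and Mt2 0.38, all with the opposite sign to the main value. Most codes occur in 1 or a few of the groups, and the code and the group cannot be fully told apart. Without the 7 libraries the average was 0.0419 for Hspa1a, 0.0510 for Hspa1b and 0.0142 for Dnajb1. The other members kept their sign and lay farther from 0. Leaving out 1 library gave -0.17 to 0.0037 for Hspa1a and -0.18 to 0.0129 for Hspa1b (both highest without vehicle replicate 4), and -0.10 to 0.0040 for Dnajb1 (highest without gemcitabine replicate 3). Hspa1b was also above 0 without KCL-HO-1i/5-FU replicate 3 (0.0088). Over all genes, edgeR called 8, DESeq2 1139 and limma-voom 263 in the KCL-HO-1i average, 89, 953 and 251 among the 6 groups, and 0, 883 and 1310 in KCL-HO-1i/gemcitabine against vehicle. Of 1106 recomputed single values, 1090 kept their sign and side of the threshold. The fewest reads of a member in a tumour were 98 (Hspa1a, 5-FU replicate 4).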
